A study of Mus musculus with 6 samples.

Results

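Nicotinic acetylcholine receptor subunits are the protein chains of the ion channel through which motor nerves excite skeletal muscle. Of the 16 nicotinic subunit genes in the count table, 7 were chosen. They are the muscle subunits Chrna1 (alpha1), Chrnb1 (beta1), Chrnd (delta), Chrne (the adult epsilon subunit) and Chrng (the fetal gamma subunit), with Chrna9 and Chrna10, which encode the alpha9 and alpha10 subunits. The genes were found by symbol among 51911 genes and were selected on the measured induction of Chrna9 in transgenic against wild-type muscle. The levels of the 7 genes by genotype are therefore given as a description, with no p-value.

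The RNA came from gastrocnemius muscle of male mice, as 3 libraries from HSA-PGC-1a3 transgenic mice and 3 from wild-type mice. The transgene places PGC-1alpha3, an isoform of the coactivator PGC-1alpha, under the skeletal actin promoter of human origin (HSA), and that promoter works in muscle fibres. The mice's age and strain, the number of transgenic lines and the animals behind each library are not given in the sources used here, so the errors below measure the spread between libraries. Ppargc1a, the gene of the transgene, had 94358, 73513 and 120862 counts with the transgene and 1179, 1809 and 1200 counts without it, so each library matched its label.

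The muscle receptor is a pentamer built from alpha1, which carries the acetylcholine binding face, with beta1, delta and either gamma or epsilon. In rodents gamma is used before birth and around the time of innervation, and epsilon replaces it in the mature endplate. Myogenic factors such as myogenin bind E-boxes in the subunit promoters, electrical activity holds the alpha1, beta1, delta and gamma genes low outside the endplate, and denervation raises them. The alpha9 and alpha10 subunits are best known from cochlear hair cells, where together they form the receptor for the efferent nerve fibres.

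The promoter windows of Chrna1, Chrnb1, Chrna9 and Chrne are shown because the first 3 genes were higher in transgenic muscle and the adult subunit gene was not separated between genotypes. Each window holds 250 bases before and 50 bases after the RefSeq transcript start (GRCm38.p6), written 5′ to 3′ on the strand of the gene. The windows are chr2:73580289-73580588 (minus strand) for Chrna1, chr11:69795888-69796187 (minus strand) for Chrnb1, chr5:65966874-65967173 (plus strand) for Chrna9 and chr11:70619145-70619444 (minus strand) for Chrne. The upstream part of the Chrnb1 window, from position 69796068, lies within the annotated end of Fgf11 on the same strand. Capitals mark the E-boxes CAGCTG and CAGGTG, the latter also where it lies on the other strand and reads CACCTG, and the N-box CCGGAA, which Ets-family factors bind.
Chrna1: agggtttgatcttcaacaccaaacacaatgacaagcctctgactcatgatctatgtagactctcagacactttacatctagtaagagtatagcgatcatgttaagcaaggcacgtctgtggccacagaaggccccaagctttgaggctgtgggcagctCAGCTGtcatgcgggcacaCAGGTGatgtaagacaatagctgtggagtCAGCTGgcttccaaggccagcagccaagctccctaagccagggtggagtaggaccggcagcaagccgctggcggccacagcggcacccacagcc
Chrnb1: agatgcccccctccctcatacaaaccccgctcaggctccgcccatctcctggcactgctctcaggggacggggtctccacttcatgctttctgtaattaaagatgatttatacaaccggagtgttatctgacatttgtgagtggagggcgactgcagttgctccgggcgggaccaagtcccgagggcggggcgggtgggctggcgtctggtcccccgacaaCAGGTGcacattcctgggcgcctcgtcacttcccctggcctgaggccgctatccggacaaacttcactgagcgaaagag
Chrna9: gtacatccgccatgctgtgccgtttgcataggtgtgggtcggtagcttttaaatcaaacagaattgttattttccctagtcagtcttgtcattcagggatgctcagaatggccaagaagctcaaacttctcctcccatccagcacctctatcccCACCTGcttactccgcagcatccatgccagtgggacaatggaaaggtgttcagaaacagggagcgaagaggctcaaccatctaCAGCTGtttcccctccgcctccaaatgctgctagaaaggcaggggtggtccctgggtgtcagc
Chrne: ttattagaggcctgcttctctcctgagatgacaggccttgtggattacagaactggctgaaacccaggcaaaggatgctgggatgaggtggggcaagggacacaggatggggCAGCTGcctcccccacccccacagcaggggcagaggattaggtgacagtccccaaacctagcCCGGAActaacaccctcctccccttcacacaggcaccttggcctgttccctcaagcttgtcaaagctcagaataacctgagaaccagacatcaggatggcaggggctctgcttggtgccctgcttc

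Chrna1 held CAGCTG starting 92 and 44 bases before its start and CAGGTG 73 bases before it. Chrnb1 held CAGGTG 29 bases before its start, and Chrna9 held CAGCTG 13 bases and CACCTG 96 bases before the start. Chrne held CAGCTG 138 bases and the N-box CCGGAA 76 bases before its start, and no other subunit window held that N-box. Of the other 2 subunit genes with a window, Chrng had CAGCTG 155 and 132 bases before its start and Chrna10 had CAGGTG 129 bases before its start. Searched on both strands, CAGCTG occurred in 16.3% of 32851 mouse promoter windows of this length, CAGGTG in 20.2%, CCGGAA in 14.9% and the general E-box CANNTG, which includes both marked E-boxes, in 72.3%. All 6 subunit windows held at least 1 CANNTG. TCAAGGTCA, a site for oestrogen-related receptors, which are partners of PGC-1alpha, occurred in 0.423% of all windows and in none of the 6. A match of letters is a description and shows no binding. Chrna9 has 3 annotated coding starts, the farthest lying 32203 bases upstream of the RefSeq start used here, and counts per gene do not show which start was in use.

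Library totals ran from 25532146 to 40846872 counts, and a count of 3 equalled 0.0804 to 0.134 CPM (counts scaled to library size with TMM factors). Of 16593 genes past the filter on low counts, 8419 differed between genotypes at an adjusted p of 0.05 (edgeR quasi-likelihood test, Benjamini-Hochberg). That is 50.7% of the genes tested, with 25.5% higher and 25.2% lower in transgenic muscle. The CPM ranges of the genotypes were apart for 59.6% of genes, with 30.1% higher and 29.5% lower in transgenic muscle. Of the 8 markers of muscle fibres, which include Acta1, Ckm and Des, all were expressed, with a summed level of 77128 to 79965 CPM with the transgene and 144109 to 153931 CPM in the wild type, so the tissue matched its label. In bulk muscle, fewer cells of a type and less RNA per cell cannot be told apart.

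Of the 7 subunit genes, 6 passed the filter on low counts. Past the same threshold, Chrna1, Chrnb1 and Chrna9 were higher and Chrna10 was lower in transgenic muscle, while Chrnd and Chrne were not past it. These 4 of 6 stand beside the background of 50.7% in all genes, and nothing is read from their number because the same contrast led to the choice. Over all genes tested, the CPM ranges of the genotypes were apart for 59.6%, with 30.1% higher and 29.5% lower. They were apart for the same 4 subunit genes, 3 of them higher and 1 lower. All 15 other analyses run, with another scaling, filter or test or fewer libraries, placed these 4 on the same side of the threshold. Those analyses reuse the libraries that led to the choice, so they give no independent support.

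**Figure D1:**
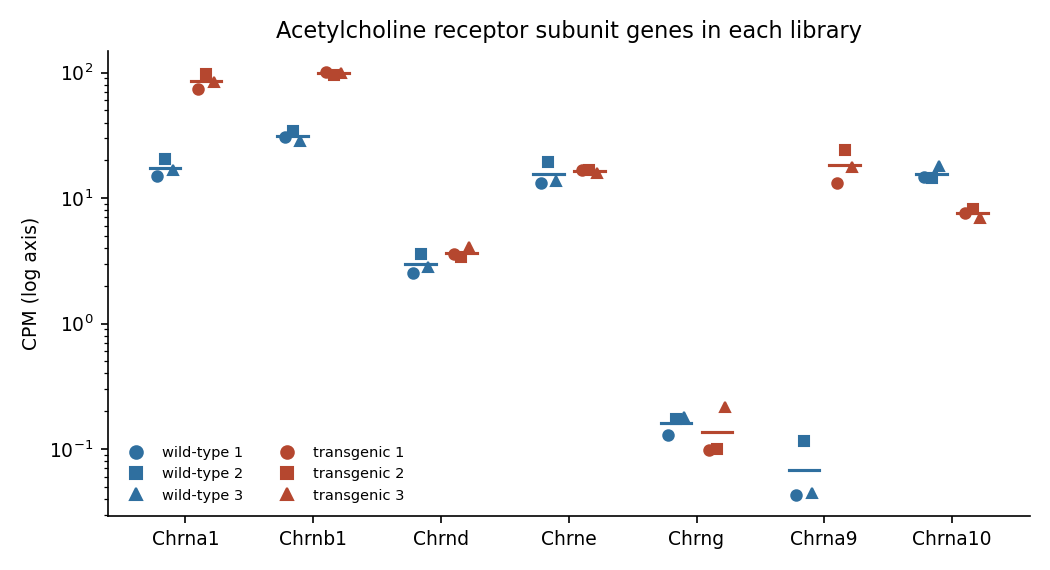
CPM of each subunit gene in each library on a log axis, with wild-type libraries in blue, transgenic libraries in red, a marker shape for each replicate number and a bar at each mean. Chrna1, Chrnb1 and Chrna9 lay higher in every transgenic library, Chrna10 lay lower, and the ranges of Chrnd, Chrne and Chrng overlapped.

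Chrna1 (GRCm38 chromosome 2, 73563215 to 73580338) encodes the alpha1 subunit, present as a pair in each muscle receptor. It was measured at 74.0, 98.1 and 83.7 CPM in transgenic libraries 1 to 3, against 15.1, 20.4 and 16.7 CPM in wild-type libraries 1 to 3. Every transgenic library was far above every wild-type library. The means were 85.3 ± 12.2 and 17.4 ± 2.72 CPM (SD, n = 3 each), a log2 fold change of 2.29 with a standard error (SE) of 0.14, or 4.87-fold.

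Chrnb1 (chromosome 11, 69784036 to 69795943) encodes beta1, the subunit through which the receptor is held by rapsyn at the endplate. Its level was 101.3, 96.3 and 98.9 CPM in transgenic replicates 1 to 3, whereas wild-type replicates 1 to 3 gave 30.6, 34.4 and 28.6 CPM. The transgenic libraries lay close together and apart from the wild-type ones. The log2 fold change was 1.66 (SE 0.07), or 3.16-fold, with means of 98.9 ± 2.48 and 31.2 ± 2.95 CPM (SD, n = 3 each).

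Chrnd (chromosome 1, 87190607 to 87200070) encodes delta, which lines an agonist site together with alpha1. The transgenic libraries gave 3.55, 3.36 and 4.07 CPM, and the wild-type libraries 2.51, 3.57 and 2.81 CPM. Wild-type replicate 2 lay above transgenic replicates 1 and 2, so the genotypes overlapped. The log2 fold change was 0.29 (SE 0.17) with means of 3.66 ± 0.367 and 2.96 ± 0.546 CPM (SD, n = 3 each).

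Chrne (chromosome 11, 70614883 to 70619216) encodes epsilon, the subunit of the mature endplate, and is transcribed mainly by the fibre nuclei beneath the synapse. Transgenic muscle held 16.6, 16.9 and 15.9 CPM, and wild-type muscle 13.1, 19.5 and 13.6 CPM. Wild-type replicate 2 was the highest of all 6 libraries and the other 2 wild-type libraries were the lowest. The log2 fold change was 0.08 (SE 0.14), between means of 16.5 ± 0.474 and 15.4 ± 3.58 CPM (SD, n = 3 each). Without wild-type replicate 2 it was 0.30 and past the threshold, and it was 0.28 and past the threshold without both libraries numbered 2, a removal chosen after the data were seen. Scaled to library totals alone, Chrne was at 0.48 and Chrnd at 0.69, both past the threshold, while the median of all genes moved from -0.016 to 0.38.

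Chrng (chromosome 1, 87204657 to 87212694), the gamma gene, lies 4587 bases beyond Chrnd on the same strand. Its counts, 3, 3 and 8 with the transgene and 3, 6 and 4 in the wild type, were too few for the fit. Both genotypes were near the floor of 3 counts. Summed and scaled, 14 against 13 counts gave a ratio of 0.884 (95% exact counting interval 0.385 to 2.04), so a difference was not detectable at this depth. Intervals here cover counting error only.

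Chrna9 (chromosome 5, 65934921 to 65977326) encodes alpha9, which can form receptors by itself or with alpha10. Transgenic libraries held 401, 722 and 659 counts and wild-type libraries 1, 4 and 1, equal to 13.2, 24.1 and 17.7 CPM against 0.0433, 0.115 and 0.0446 CPM. The wild-type libraries were at or near the floor, far below every transgenic library. In sums, 1782 counts stood against 6, a scaled ratio of 244 (95% exact counting interval 112 to 665). The fitted log2 fold change was 7.86 (SE 0.42), which depends on the prior count at such low wild-type levels, and it was 8.56 without wild-type replicate 2. Among the transgenic libraries the values differed up to 1.82-fold, with replicate 1 the lowest and replicate 2 the highest, as for Chrna1.

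The 8 markers of hair cells and sensory neurons summed to 11.9 to 14.1 CPM with the transgene, against 14.9 to 18.0 CPM in the wild type, with the hair cell factor Pou4f3 at 0 in all 6. Of the 4 of these markers tested, Otof rose (2.53, SE 0.52, adjusted p = 0.00194) and Avil, which shares 165 exonic bases with Tsfm, fell (-0.72, SE 0.12, adjusted p = 5.31e-04). These calls stand beside 25.5% of all genes tested higher and 25.2% lower. Otof was at 0.400 to 1.18 against 0.0866 to 0.178 CPM, and most of the sum came from Myo7a (5.95 to 7.76 against 6.996 to 8.60 CPM) and Avil (4.31 to 5.10 against 7.17 to 8.33 CPM). In humans keratinocytes also express the alpha9 gene. Their 6 markers summed to 25.8 to 29.3 CPM with the transgene, against 9.57 to 11.6 CPM in the wild type. Most of that sum was Trp63, at 21.8 to 26.5 against 6.54 to 8.96 CPM, the single gene of 2 tested to rise (1.59, SE 0.12, adjusted p = 1.78e-06). That call stands beside the same 25.5% of all genes tested higher. The other 5 markers together gave 2.73 to 4.88 against 2.67 to 3.08 CPM, with Krt14 at 0 in all libraries. The part of these cells in the Chrna9 level was not tested.

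Chrna10 (chromosome 7, 102111266 to 102116828) encodes alpha10, which needs alpha9 to form a channel. The counts assigned to it equalled 14.6, 14.5 and 17.9 CPM in wild-type muscle, against 7.66, 8.20 and 6.97 CPM in the transgenic libraries. No transgenic library reached the lowest wild-type library. The log2 fold change was -1.04 (SE 0.11), or 2.06-fold lower, with means of 7.61 ± 0.617 and 15.7 ± 1.93 CPM (SD, n = 3 each).

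The Chrna10 counts carry a limit. Of its 2628 exonic bases, 1025 (39.0%) are shared with Art1, a muscle ADP-ribosyltransferase gene on the opposite strand, and fragments were counted without strand and for every gene they overlap, so reads of the 2 genes cannot be told apart there. Art1, with 6167 to 7955 counts in transgenic against 6878 to 11621 in wild-type libraries, fell by 0.56 on the log2 scale (SE 0.06, adjusted p = 3.21e-05). Chrna10 counts equalled 3.27% to 3.99% of Art1 counts with the transgene, against 4.33% to 5.63% in the wild type. These ranges do not overlap, but they compare counts over whole genes. They do not show which gene the reads of the shared bases came from, so no change of Chrna10 alone is read from them.

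Levels of different subunits were compared per length, as FPKM (CPM per kilobase of annotated exon). In transgenic muscle the order was Chrnb1 at 39.1 ± 0.980, Chrna1 at 19.4 ± 2.77, Chrne at 9.74 ± 0.281, Chrna9 at 6.05 ± 1.81, Chrna10 at 2.89 ± 0.235, Chrnd at 1.11 ± 0.111 and Chrng at 0.0331 ± 0.0160 FPKM (SD, n = 3). No neighbours in that order overlapped. In wild-type muscle it was Chrnb1 at 12.3 ± 1.16, Chrne at 9.13 ± 2.12, Chrna10 at 5.97 ± 0.736, Chrna1 at 3.96 ± 0.620, Chrnd at 0.901 ± 0.166, Chrng at 0.0385 ± 0.00635 and Chrna9 at 0.0224 ± 0.0136 FPKM. Chrnb1 and Chrne overlapped there, as did Chrng and Chrna9. The Chrna10 levels, here and per coding length, carry the limit of the bases shared with Art1.

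The order depends in part on the length used, because the annotated exons of Chrna1 (4386 bases) exceed its coding length (1371 bases) by more than those of Chrne (1690 against 1482 bases). Per coding length, Chrna1 moved next to Chrnb1 in transgenic muscle, at 62.2 ± 8.87 and 65.8 ± 1.65, and their ranges overlapped, as did those of Chrna9 and Chrne. In wild-type muscle the order per coding length became Chrnb1 at 20.8 ± 1.96, then Chrna1 at 12.7 ± 1.98, Chrna10 at 11.7 ± 1.44 and Chrne at 10.4 ± 2.42, of which the last 3 formed overlapping neighbours. Chrnb1 had the highest mean and Chrnd lay below Chrna1, Chrnb1 and Chrne with both lengths and in both genotypes.

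**Figure D2:**
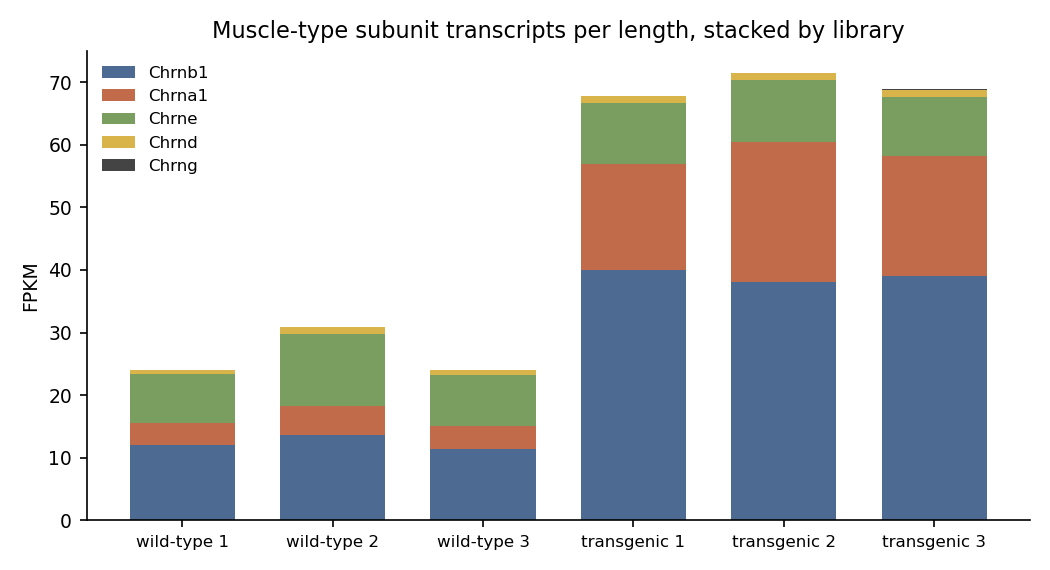
FPKM of the 5 muscle subunit genes stacked for each library, with 1 bar per library and 1 colour per gene. The sum was 24.1 to 30.9 FPKM for the wild type and 67.8 to 71.5 FPKM for the transgenic libraries, while the Chrne band kept a like height and Chrng was too small to see.

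The 5 muscle subunit genes summed to 69.4 ± 1.87 FPKM in transgenic and 26.4 ± 3.97 FPKM in wild-type muscle (SD, n = 3 each). Chrna1 made up 28.0% ± 3.23 of that sum with the transgene and 15.0% ± 0.779 in the wild type, and Chrnb1 56.3% ± 2.90 against 47.1% ± 3.11. Chrne made up 14.0% ± 0.404 against 34.3% ± 2.69, and Chrnd 1.61% ± 0.183 against 3.41% ± 0.206. The alpha1 share was thus higher and the epsilon and delta shares lower in every transgenic library. Per coding length the epsilon share was 7.86% ± 0.384 against 22.5% ± 1.93, the alpha1 share 43.8% ± 3.99 against 27.6% ± 1.29, and the beta1 share 46.6% ± 3.52 against 45.5% ± 2.85.

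Ratios of 2 subunits within a library do not depend on how libraries are scaled. Chrna1 over Chrne was 1.72, 2.24 and 2.02 with the transgene, against 0.443, 0.402 and 0.474 in the wild type, with no overlap. Chrnd over Chrna1 was 0.0582 ± 0.0108 in transgenic and 0.227 ± 0.00608 in wild-type muscle. The wild-type ratio varied little between libraries, but it rests on 58, 124 and 63 Chrnd counts in 3 libraries, so nothing is read from that. Chrnb1 over Chrna1 was 2.04 ± 0.336 against 3.14 ± 0.328, again without overlap. By count per length, the 2 subunits of the hair cell receptor reversed their order. Chrna9 over Chrna10 was 2.08 ± 0.537 in transgenic and 0.00388 ± 0.00263 in wild-type muscle. The Chrna10 counts may hold Art1 reads, and wild-type Chrna9 had only 1, 4 and 1 counts. Chrna9 reached 0.306 ± 0.0485 of the Chrna1 level per length in transgenic muscle and 0.00541 ± 0.00241 in wild-type muscle. These are SD over 3 libraries each, and coding length changes a ratio by the same factor in both genotypes.

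In each genotype, replicate 2 had the highest Chrna1, Chrne and Chrna9 level, and in the wild type also the highest Chrnb1 and Chrnd level. The same libraries had the highest summed level of 8 slow-fibre markers. The sums were 1494, 2872 and 1285 CPM with the transgene, against 911, 1981 and 769.6 CPM in the wild type (replicates 1 to 3). Of the 8, 0 were past the edgeR threshold, against 50.7% of all genes tested, and 0 had an unadjusted p under 0.05. With limma-voom 0 passed, and with DESeq2 1 passed, as higher in transgenic muscle. The 8 markers had a median log2 fold change of 0.73, against -0.016 over all genes tested. Their CPM ranges were apart for 2, against 59.6% of all genes. Schwann cell markers summed to 160, 34.8 and 50.7 against 130, 102 and 61.8 CPM, and markers of motor axons to at most 1.57 CPM. The part of fibre type or nerve content in the subunit levels was not tested. Without both libraries numbered 2, Chrna9 was at 8.32 and Chrna10 at -1.16 on the log2 scale.

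By the distance between log2 CPM profiles centred on each gene over the 6 libraries, the genes nearest to Chrna1 were Pfn4 (0.16), Xkr6 (0.20), Fam83d (0.21), Lonrf2 (0.30) and Peg10 (0.36). Pfn4 was at 3.67 ± 0.454 against 0.688 ± 0.127 CPM and Fam83d at 24.1 ± 5.10 against 4.60 ± 0.584 CPM (SD, n = 3). Pfn4 shares 246 exonic bases with Fam228b and Xkr6 shares 326 with Gm15918. The genes nearest to Chrna9 were farther from it, namely Ppargc1a (1.90), Rnf208 (2.30), Shisal1 (2.52), Gm12354 (2.79) and Sln (2.83). Shisal1, for example, was at 16.9 ± 2.51 against 0.381 ± 0.237 CPM. Rnf208 shares 159 exonic bases with Cysrt1. A short distance states a like pattern over these 6 libraries and no more.

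Of the 9 other nicotinic subunit genes, most of which encode subunits of neuronal receptors, 3 passed the filter on low counts, and 2 of them rose and 1 fell (median log2 fold change 0.59, against -0.016 over all genes tested, of which 50.7% passed the threshold, 25.5% higher and 25.2% lower). Chrna4 had 35, 34 and 27 counts with the transgene, against 15, 11 and 6 in the wild type (1.29, SE 0.39, adjusted p = 0.0163). Chrnb2 had 104, 114 and 112 against 60, 67 and 51 counts (0.59, SE 0.18, adjusted p = 0.0151), and shares 1365 exonic bases with Adar. Chrna2 had 28, 30 and 37 against 38, 49 and 41 counts (-0.73, SE 0.23, adjusted p = 0.0198). The ranges of each gene's CPM did not overlap, yet all 3 calls were lost when particular libraries were left out: Chrnb2 and Chrna4 without transgenic or wild-type replicate 2, Chrna4 also without wild-type replicate 3, and Chrna2 without transgenic replicate 1 or 2 or wild-type replicate 3. Chrna2 was also not past the threshold with DESeq2, without the filter on low counts or with library totals alone. Chrna3, Chrna5, Chrna6, Chrna7, Chrnb3 and Chrnb4 had at most 21 counts each over all 6 libraries.

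The muscarinic receptors, which bind the same transmitter but signal through G proteins, gave 1 tested gene of 5. Chrm3, which encodes the M3 receptor, had 493, 346 and 482 counts with the transgene, against 16, 18 and 11 in the wild type. It rose by 4.58 on the log2 scale (SE 0.19, adjusted p = 4.25e-08), from 0.567 ± 0.110 to 13.6 ± 2.41 CPM (SD, n = 3 each). The other 4 muscarinic genes had at most 9 counts each in all.

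The tested genes of acetylcholine turnover were lower or not past the threshold. Of 7 genes of acetylcholine synthesis, transport and breakdown, 4 were tested with edgeR, 3 fell and 0 rose, also at an unadjusted p under 0.05 and with DESeq2 or limma-voom (median -0.92; 25.5% of all tested genes rose and 25.2% fell). Ache, which encodes acetylcholinesterase, had 563, 413 and 750 counts with the transgene, against 1031, 1900 and 1000 in the wild type, and fell by 1.46 (SE 0.15, adjusted p = 1.08e-04). Ache shares 98 exonic bases with Gm42456. Prima1, whose product anchors the enzyme in membranes, fell by 1.65 (SE 0.22, adjusted p = 1.05e-04). Colq, which encodes the collagen tail that holds it in the synaptic cleft, fell by 0.39 (SE 0.14, adjusted p = 0.0346). The Colq value was 0.0079 with library totals alone, and its call was lost without transgenic replicate 1 or 3 or wild-type replicate 1 or 2.

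Of 9 genes that cluster the receptor at the endplate, all were tested, 2 rose and 4 fell (median -0.31), against 25.5% and 25.2% of all genes tested. Lrp4, which encodes the agrin receptor, rose by 0.53 (SE 0.08, adjusted p = 2.56e-04). Dok7, which activates the kinase MuSK, fell by 0.79 (SE 0.09, adjusted p = 2.90e-05), and the dystrophin-complex gene Dtna fell by 0.56 (SE 0.06, adjusted p = 1.37e-05). Dtna shares 90 exonic bases with Gm47898. Rapsn, whose product ties the receptor to the cytoskeleton and which overlaps Gm13778, was at 32.2 ± 0.344 against 29.9 ± 1.29 CPM (0.11, SE 0.06, adjusted p = 0.175), and Musk was at 25.4 ± 7.54 against 32.6 ± 9.23 CPM (-0.35, SE 0.33, adjusted p = 0.440).

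Among 15 genes for receptor assembly and Ly6 proteins, which bind nicotinic receptors from outside, 8 were tested, 4 rose and 2 fell (median 0.19), with 25.5% of all genes tested higher and 25.2% lower. Ric3, a chaperone of nicotinic subunit assembly, had 227, 227 and 255 counts against 68, 157 and 70 (1.02, SE 0.16, adjusted p = 3.35e-04), and shares 149 exonic bases with Tub. The cochaperone ubiquitin ligase gene Stub1, which shares 1084 exonic bases with Jmjd8, rose by 0.56 (SE 0.05, adjusted p = 7.92e-06), and Rer1, which retains unassembled subunits in the early secretory pathway, rose by 0.25 (SE 0.05, adjusted p = 0.00213). Lynx1, which dampens nicotinic receptors in mouse brain, fell by 0.33 (SE 0.08, adjusted p = 0.00613), but was at 0.068 with library totals alone.

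**Figure D3:**
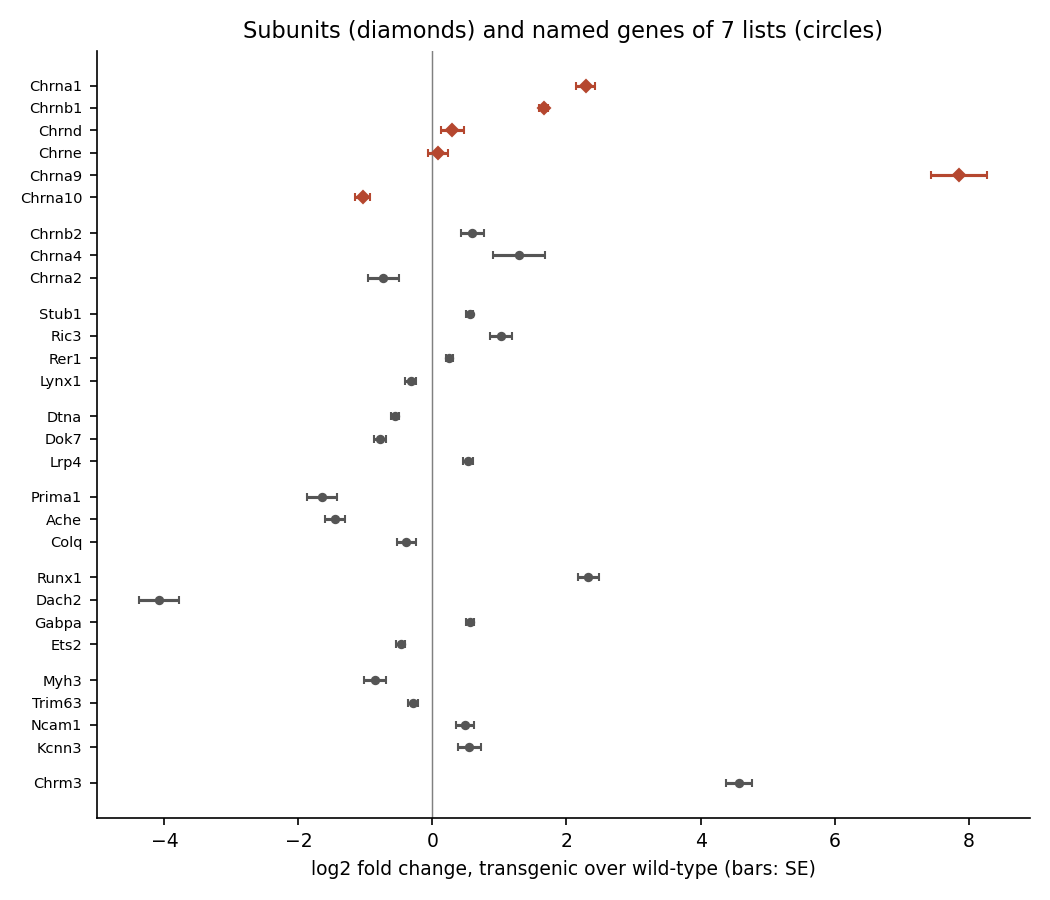
Log2 fold change of transgenic over wild-type muscle for the 6 tested subunit genes (red diamonds) and for genes of the 7 related lists named by smallest p (grey circles), with bars of 1 SE. Chrna9 lay at 7.86 and Chrm3 at 4.58 on the high side, and Dach2 at -4.08 and Prima1 at -1.65 on the low side.

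Among 25 regulators of the subunit genes, 24 were tested, of which 8 rose and 8 fell (median -0.077), beside 25.5% higher and 25.2% lower over all genes tested. Runx1, a transcription factor that denervation induces in mouse muscle, had 370, 515 and 570 counts with the transgene, against 79, 100 and 58 in the wild type (2.33, SE 0.15, adjusted p = 6.65e-07), and shares 106 exonic bases with Gm26626. Dach2, which in mice holds Myog down in innervated muscle, had 10, 21 and 9 counts against 132, 275 and 167, and fell by 4.08 (SE 0.30, adjusted p = 2.35e-06). Myog, the gene of the E-box factor myogenin, had 211, 369 and 491 counts against 87, 101 and 83 (1.66, SE 0.26, adjusted p = 9.87e-04); it was named after its values were seen. Gabpa, whose product binds the N-box, rose by 0.56 (SE 0.06, adjusted p = 2.32e-05), and shares 397 exonic bases with Atp5j. Ets2, another Ets-family gene, fell by 0.48 (SE 0.07, adjusted p = 2.04e-04), and was at -0.079 and not past the threshold with library totals alone.

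Of 8 other genes that denervation raises in muscle, all tested, 3 rose and 2 fell (median -0.026), beside 25.5% and 25.2% of all genes tested. The adhesion gene Ncam1 rose by 0.49 (SE 0.14, adjusted p = 0.0125) and the potassium channel gene Kcnn3 by 0.55 (SE 0.17, adjusted p = 0.0182), and both calls were lost without wild-type replicate 1 or 3. Ncam1 shares 417 exonic bases with Gm11149. The embryonic myosin gene Myh3 fell by 0.86 (SE 0.16, adjusted p = 0.00204), and the ubiquitin ligase gene Trim63 fell by 0.29 (SE 0.07, adjusted p = 0.00748) but was at 0.11 with library totals alone. Markers of regenerating fibres, another setting in which subunit genes are high, gave 1 higher gene, Mybph (3.01, SE 0.41, adjusted p = 0.00436), and 2 lower ones, Myh3 and Myl4 (-1.23, SE 0.20, adjusted p = 4.90e-04), of 4 tested. Mybph shares 1162 exonic bases with Adora1, and Myl4 overlaps Gm22000. Mybph held most of the level in transgenic muscle, at 119 to 171 CPM with the transgene, against 10.7 to 27.7 CPM in the wild type. The other 5 markers together were lower, at 21.4 to 28.9 CPM against 36.9 to 47.4 CPM, while all 6 summed to 148 to 199.9 against 53.9 to 64.6 CPM. Their part in the subunit levels was not tested.

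The subunit genes have 12 nearest protein-coding neighbours that are not subunit genes themselves, of which 10 were tested, 4 rose and 1 fell, a share past the threshold near the 50.7% of all genes tested. This set was formed after values were seen. Fgf11, which encodes an intracellular fibroblast growth factor homologue, ends 125 bases upstream of Chrnb1 on the same strand, and had 878, 949 and 1087 counts with the transgene, against 103, 181 and 87 in the wild type (2.71, SE 0.11, adjusted p = 2.72e-08). On the other side of Chrnb1, 13 bases away, Zbtb4 rose by 0.22 (SE 0.06, adjusted p = 0.00781). The gene 9130230L23Rik, 2032 bases beyond Chrna9 on the opposite strand, had 77, 136 and 157 counts against 2, 9 and 1 (4.64, SE 0.43, adjusted p = 1.12e-05; 5.74 without wild-type replicate 2). As for Chrna9, transgenic replicate 1 was the lowest of its genotype and wild-type replicate 2 the highest. 9130230L23Rik shares 29 exonic bases with Gm25952. The nuclear pore gene Nup98, 2570 bases from Chrna10, rose by 0.48 (SE 0.05, adjusted p = 2.95e-05) while Chrna10 was lower, and Gp1ba, 19906 bases from Chrne, fell by 1.26 (SE 0.16, adjusted p = 7.05e-05). The neighbours of Chrna1, Wipf1 and Chn1, were at -0.16 (SE 0.08) and 0.35 (SE 0.18), neither past the threshold, with Chrna1 itself at 2.29.

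**Figure D4:**
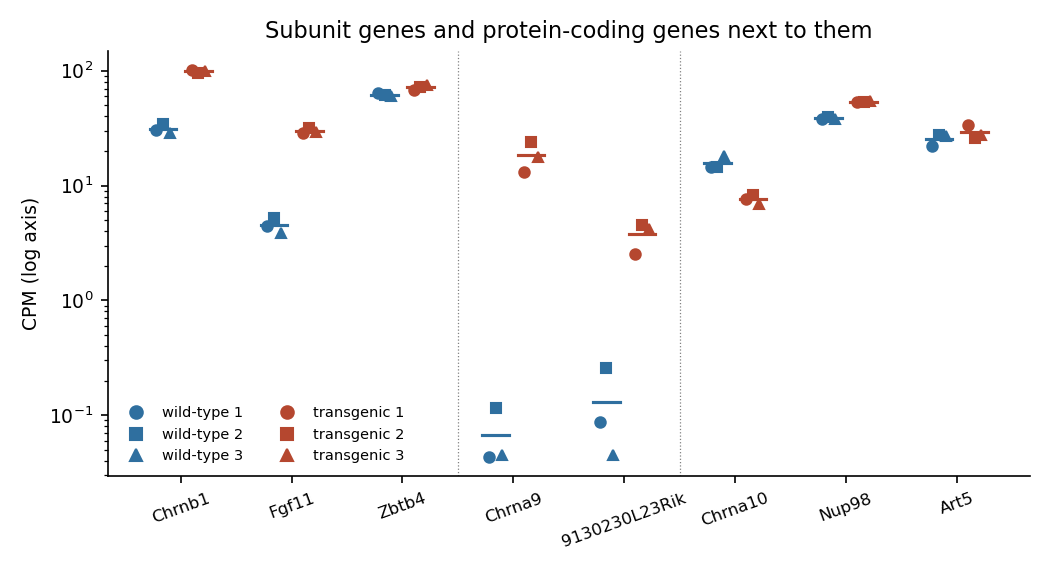
CPM on a log axis in each library for Chrnb1, Chrna9 and Chrna10 and for neighbouring protein-coding genes, with a bar at each mean and dotted lines between the 3 loci. Fgf11 lay higher in transgenic libraries next to Chrnb1, as did 9130230L23Rik next to Chrna9, while Zbtb4 differed little and Art5 overlapped between genotypes.

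In the authors' deposited table, which lists 3614 genes, 4 of the 7 subunit genes appear, with log2 fold changes of 2.25 for Chrna1, 1.65 for Chrnb1, 5.98 for Chrna9 and -1.03 for Chrna10. The Chrna9 value in the authors' deposited table is lower than the 7.86 of the fit above, and the other 3 values differ from it by less than 0.05. Chrnb2 stands at 0.91 in the authors' deposited table against 0.59 here, and Chrna4 at 0.89 against 1.29. The adjusted p-values in the authors' deposited table are 0.0533 for Chrna4 and 0.0641 for Chrna2, neither past 0.05, whereas both passed in the edgeR fit. Chrm3 stands at 4.09 in the authors' deposited table against 4.58 here, and 9130230L23Rik at 3.58 against 4.64.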

How the data were processed

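Bulk RNA sequencing of 3 transgenic and 3 wild-type gastrocnemius libraries was analysed. RNA was extracted with Trizol from frozen, pulverised muscle, per the labels' protocols. STAR 2.5.0a (alignment to GRCm38.p6), featureCounts 2.0.0 (counting) and DESeq2 (comparison of genotypes) were the authors' tools, per the submitters' processing notes. The deposited table holds raw fragment counts per gene, counted without strand and for every gene a fragment overlaps, per the file headers. The authors' deposited comparison holds log2 fold changes and p-values of genes whose change is no smaller than 0.585 on the log2 scale in either direction and whose p-value is at most 0.0499.

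Symbols and positions came from GENCODE M21 (51633 of 51911 gene IDs matched) and promoter windows from RefSeq (6 of 7 subunit genes matched). The count table was analysed in R 4.3.3 with edgeR 4.0.16: filterByExpr, TMM scaling, robust quasi-likelihood F test on genotype, Benjamini-Hochberg adjustment over all 16593 genes tested, threshold 0.05. The SE is the absolute log2 fold change over the square root of F. The biological coefficient of variation was 10.7%. The fit was tested on simulated data in which far fewer genes changed than here. That test does not check the scaling of these data. FPKM divided TMM-scaled CPM by the union of exons in kilobases. Counting intervals are exact binomial at 95%. The distance between genes was Euclidean, from log2 CPM (prior count 2).

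The subunit genes, 7 related gene lists and 10 marker lists were chosen with earlier results of these data known. Named genes are all subunit genes, up to 4 genes past the threshold by smallest p from each list, and the 5 genes nearest to Chrna1 and Chrna9. Of these, 1 list gene is not reported here. Fgf11 and the other neighbours were named after their values were seen. Some further genes, among them Myog, Rapsn, Musk and Art1, were also named outside that rule. Alternatives were DESeq2 1.42.0 size factors and Wald test, upper-quartile factors, library totals, other filters, limma-voom (limma 3.58.1), a replicate block, coding length and each library left out.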

Additional observations from a re-analysis of the deposited data

How the results depend on the processing

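Changes of small size depend on scaling: with library totals alone 8676 genes were higher and 1448 lower (85.7% of calls higher, against 50.2%), 5 subunit genes were higher, and 7 genes of the 7 related lists were lower, against 20. That scaling also turned the direction of Colq (0.0079), Lynx1 (0.068), Trim63 (0.11), Cdh15 (0.20) and Wipf1 (0.24), whose values lie below the 0.38 median shift. Without both libraries numbered 2, 13 list genes were lower, and the cause was not tested. Per coding length, by construction, the ratio of Chrna1 to Chrne was 5.60 in transgenic and 1.23 in wild-type muscle, of Chrnb1 to Chrna1 1.07 and 1.65, of Chrnd to Chrna1 0.0384 and 0.149, of Chrng to Chrne 0.00657 and 0.00826, and of Chrna9 to Chrna1 0.195 in transgenic muscle. The other counts of calls stayed within 1.5 times, at 7449 to 7888 genes with a library left out. With the replicate block 8331 genes passed, 8054 of them shared with the 8419, and the subunit calls were unchanged. Libraries of equal number deviated together by correlations of 0.101, -0.088 and -0.21, and not every library correlated best with its own number, so the numbers were not taken as pairs. Depth limits Chrng and the wild-type level of Chrna9.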

Other observations

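Of 6 satellite cell markers, all tested, 3 rose and 1 fell, where 25.5% of all genes tested were higher and 25.2% lower: Pax7 by 0.47 (SE 0.16, adjusted p = 0.0269), Myf5 by 0.69 (SE 0.20, adjusted p = 0.0154) and Chodl by 0.31 (SE 0.11, adjusted p = 0.0282), against Cdh15 at -0.20 (SE 0.07, adjusted p = 0.0431). Their summed level was 74.0 to 98.0 CPM with the transgene, against 69.97 to 77.2 CPM in the wild type. The Pax7, Chodl and Cdh15 calls were each lost when some single library was left out, and Cdh15 was at 0.20 and higher with library totals alone. Of 7 macrophage markers, Cd68 alone passed the threshold, and it rose by 1.40 (SE 0.19, adjusted p = 1.27e-04). Their sum was 72.6 to 82.9 against 54.8 to 85.1 CPM. The 8 markers of B and T cells summed to 11.6 to 14.7 CPM with the transgene, against 121.6, 30.4 and 118.6 CPM in wild-type libraries 1 to 3. The 2 tested went in opposite directions, Cd3e at 3.06 (SE 0.21, adjusted p = 6.72e-07) and Ighm at -4.50 (SE 0.75, adjusted p = 0.00895). The other 6 had at most 18 counts each in all. Cd3e shares 135 exonic bases with Gm48719.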
